A study of Mus musculus with 18 samples.

Results

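The genes of cholesterol and fatty acid synthesis were followed in cultured primary microglia, the resident macrophages of the brain, from mice of 6 genotypes. The group holds 37 genes chosen by symbol for their role in the pathway, among them the enzymes of the sterol and fatty acid pathways, the SREBP factors with the proteins that hold or escort them, and the LXR receptors with their targets. All 37 were found among the 50686 gene identifiers measured, and all 37 were among the 13447 genes that passed the filter on low counts. Messenger RNA was sequenced in 18 libraries, 3 for each genotype, from C57BL/6 forebrains of postnatal day 2, whose cells grew for 7 days before and 7 days after a change of medium and whose microglia were then shaken off. The genotypes, as the labels spell them, were WT, Tbk1+/-, Tak1ΔM/+, Tbk1+/-;Tak1ΔM/+ (here the double heterozygote), Tbk1+/-;Tak1ΔM/+;Ripk1D138N/+ (here the triple genotype) and Tbk1+/-;Ripk1D138N/D138N (here Tbk1+/- Ripk1-homozygous). TBK1 and TAK1, which the gene Map3k7 encodes, are kinases that restrain RIPK1, and RIPK1 that carries D138N has no kinase activity. The labels do not describe the ΔM allele, a Cre driver or separate animals, so p-values measure only the spread between libraries, which may be technical.

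Cholesterol is made from acetyl-CoA by a long chain of enzymes whose genes are switched on by the transcription factor SREBP-2, while the related SREBP-1c drives fatty acid synthesis. When membranes hold enough sterol, INSIG proteins keep SCAP and its SREBP cargo in the endoplasmic reticulum. When sterol is low, SCAP carries SREBP to the Golgi, where it is cut and released. Sterols that accumulate, oxysterols above all, activate the LXR receptors, which raise the cholesterol exporters ABCA1 and ABCG1. Microglia and other macrophages use both arms to handle the lipid of the cells they take up.

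SREBP factors bind sterol regulatory elements, usually beside a CCAAT box bound by the factor NF-Y. RefSeq start sites on build GRCm38.p6 gave a promoter for 29 of the 37 genes, and the 250 bases before each start were searched on both strands. The letters CCAAT or ATTGG were present before at least 1 listed start of 20 of these 29 genes (69%), and of 14 of the 15 sterol enzymes with a promoter (93.3%). Among tested genes with a promoter the share was 40.6% of 9801, and among all 27025 genes in the table it was 37.5%. The element TCACNCCAC or GTGGNGTGA was found in 1 of the 29 genes (3.45%), Hmgcs1, and in 1.27% of tested genes. A match describes the letters only. The windows of 3 sterol enzymes whose RNA was highest in the same library, and of Abca1 as an LXR target without a match, are shown because the values below set these 2 kinds of gene side by side, and capitals mark the matches. They lie at chr13:119690101-119690350 on the plus strand (Hmgcs1), chr8:122443423-122443672 on the minus strand (Mvd), chr9:42264301-42264550 on the minus strand (Sc5d) and chr4:53159896-53160145 on the minus strand (Abca1).
Hmgcs1: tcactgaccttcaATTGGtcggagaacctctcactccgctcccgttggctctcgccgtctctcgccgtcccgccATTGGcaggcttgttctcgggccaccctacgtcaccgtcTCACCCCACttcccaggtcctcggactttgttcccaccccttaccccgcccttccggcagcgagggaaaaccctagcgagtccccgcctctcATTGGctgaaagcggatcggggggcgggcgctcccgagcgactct
Mvd: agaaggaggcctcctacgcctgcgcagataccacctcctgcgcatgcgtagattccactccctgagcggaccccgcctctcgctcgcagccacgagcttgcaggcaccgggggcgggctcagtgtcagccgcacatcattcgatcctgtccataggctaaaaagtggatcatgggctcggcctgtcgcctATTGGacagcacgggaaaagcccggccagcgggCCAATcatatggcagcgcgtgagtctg
Sc5d: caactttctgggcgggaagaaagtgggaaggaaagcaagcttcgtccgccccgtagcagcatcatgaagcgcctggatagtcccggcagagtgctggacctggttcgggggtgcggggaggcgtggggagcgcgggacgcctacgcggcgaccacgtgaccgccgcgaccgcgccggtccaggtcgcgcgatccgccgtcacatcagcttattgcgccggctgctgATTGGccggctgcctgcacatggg
Abca1: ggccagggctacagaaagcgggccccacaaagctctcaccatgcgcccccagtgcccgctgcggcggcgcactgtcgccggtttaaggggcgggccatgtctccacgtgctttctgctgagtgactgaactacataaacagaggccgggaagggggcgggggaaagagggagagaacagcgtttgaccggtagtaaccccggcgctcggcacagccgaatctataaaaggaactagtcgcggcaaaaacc
The first base of the TCACCCCAC match of Hmgcs1 stands at -137 from the start site, and its 3 CCAAT matches begin at -237, -176 and -45. Mvd has 2 matches, at -60 and -27, and Sc5d has 1, at -24.

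Total counts ranged from 8016559 in double heterozygote replicate 2 to 22989116 in triple genotype replicate 3. Expression is given as CPM, counts scaled to a common library size by TMM. The Tbk1 RNA was 57.7 ± 7.55 CPM in Tbk1+/- and 59.2 ± 5.97 CPM in the double heterozygote against 119 ± 25.6 CPM in WT (SD, n = 3). It stood at 107 to 123 CPM in the 3 libraries labelled triple genotype and at 130 and 131 CPM in libraries labelled Tbk1+/- Ripk1-homozygous replicates 1 and 3, which goes against their labels. The 5 libraries enter the shared fit, and without them every count of called genes among the 37 that could be computed was the same, while the triple genotype could then not be compared. Map3k7 RNA was at 7.34 to 9.98 CPM in Tak1ΔM/+ and 6.57 to 15.8 CPM in the double heterozygote. In WT it was at 10.4 to 19.2 CPM, so the double heterozygote overlapped WT. Ripk1 RNA was at 49 to 71 CPM in the double heterozygote against 17 to 23.8 CPM in WT. Of the microglial markers, Csf1r stood at 1619 to 2658 CPM and Cx3cr1 at 262 to 556 CPM, with P2ry12 (at most 17.4 CPM) and Tmem119 (at most 6.56 CPM) low. Summed astrocyte markers were at 14.7 to 40.3 CPM, neuronal markers at 0.53 to 12.8 CPM, and fibroblast markers at 0.486 to 45.9 CPM. Of the oligodendrocyte-lineage markers, Cnp stood at 59 to 101 CPM and Mbp at 44.9 to 82.3 CPM, with Mog at 0 in 17 libraries. Mitochondrially encoded genes took 0.367% to 0.671% of the counts in 8 libraries, which include all 3 of the double heterozygote, and 1.05% to 2.2% in the other 10. RNA of 4 Y-linked genes was at 0 to 107 CPM in WT, 59.8 to 187 CPM in Tbk1+/- and 0 to 3.02 CPM in Tak1ΔM/+. It was at 75.9 to 99.5 CPM in the double heterozygote, 0 to 61.5 CPM in the triple genotype and 0 to 42.9 CPM in Tbk1+/- Ripk1-homozygous. Where compared genotypes do not overlap in it, Y-linked RNA and genotype cannot be told apart. In bulk RNA, fewer cells of a type and less RNA per cell cannot be told apart.

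In WT microglia the highest levels per kilobase of exon (RPKM, which is CPM divided by exon length) were those of 2 sterol enzymes and 1 fatty acid gene. Other sterol enzymes were as low as Fdps at 2.52 RPKM, where Gm43738, a protein-coding gene on the same strand, overlaps 26.7% of the exons. Hmgcs1, which makes the HMG-CoA of the mevalonate pathway, stood at 41.1 ± 5.99 RPKM, Msmo1, a sterol-C4-methyl oxidase, at 39.3 ± 0.194 RPKM and Acly, which supplies cytosolic acetyl-CoA, at 36.6 ± 4.22 RPKM (SD, n = 3). The ranges of these 3 genes over the WT libraries overlapped. Nr1h2 (LXR-beta) followed at 29.5 ± 2.06 RPKM, level with the lanosterol demethylase Cyp51 at 29.2 ± 4.52 RPKM. Its relative Nr1h3 (LXR-alpha) was at 3.13 ± 0.621 RPKM, and none of its 3 WT libraries reached any of Nr1h2. Low ends of the list were lipogenic genes. The desaturase Fads2 stood at 0.828 ± 0.269 RPKM, Scd1 at 0.439 ± 0.505 RPKM, the acetyl-CoA carboxylase Acaca at 0.326 ± 0.0161 RPKM and the elongase Elovl6 at 0.224 ± 0.209 RPKM, whereas Scd2, the other stearoyl-CoA desaturase, was at 8.86 ± 1.09 RPKM and Fads1 at 18.9 ± 1.97 RPKM.

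Across the 6 genotypes, 1 of the 37 genes passed the edgeR quasi-likelihood test of any difference, against 7.18% of all genes tested. It was Tm7sf2, a sterol C14-reductase. At an unadjusted p under 0.05 there were 4 (23% of all genes), and DESeq2 called 3 (Hmgcs1, Tm7sf2 and the exporter Abca1, where it called 16.9% of all genes). The call of Tm7sf2 was lost without Tbk1+/- replicate 1, without any 1 double heterozygote library, and when the mitochondrial share entered the fit. Without Tbk1+/- replicate 2 there were 8 calls, and without Tak1ΔM/+ replicate 1 there were 2. For these refits the share of all genes called is not given, so the counts cannot be read as particular to the 37 genes. The heat map of every gene in every library shows what stands out beside it, a single deep column of sterol enzymes in Tbk1+/- replicate 1.

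**Figure D1:**
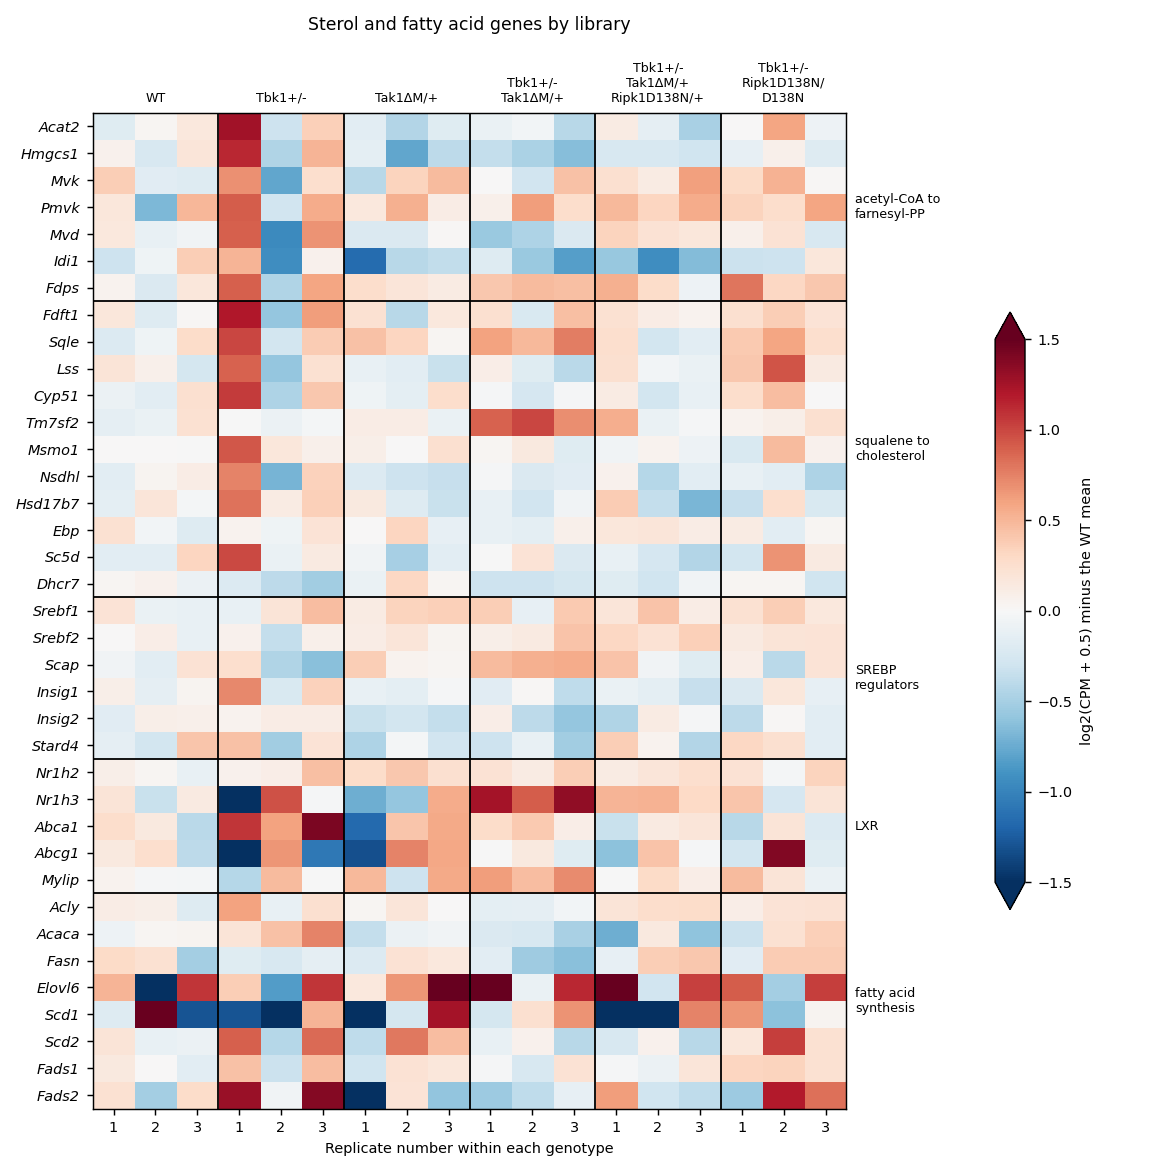
Log2(CPM + 0.5) minus the WT mean of the same quantity for 37 genes (rows, by role) in 18 libraries (columns, by genotype and replicate number), with red above and blue below the WT mean and colours saturating at the ends of the scale. Sterol enzymes were high in Tbk1+/- replicate 1 (median 0.90) and low in replicate 2 (median -0.42), and Tm7sf2 was high in the 3 double heterozygote libraries.

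Tbk1+/- microglia were compared with WT to ask what the loss of 1 Tbk1 allele does alone. None of the 37 genes passed edgeR's test, where 0.0521% of all genes did (0.0223% higher and 0.0297% lower). At an unadjusted p under 0.05 there were 3 (Msmo1, Abca1 and Dhcr7, the last step before cholesterol, against 10.2% of all genes), and DESeq2 called 0 (0.729% of all genes). Fold changes leaned upward, with 29 of 37 above 0 and a median of 0.25 on the log2 scale, against 6781 of 13447 and a median of 0.00 for all genes. For the 18 sterol enzymes 15 were above 0 and the median was 0.41. Groups did not overlap for 3 genes higher in Tbk1+/- (Msmo1, Abca1 and Acaca, against 6.28% of all genes) and for 1 lower (Dhcr7, also against 6.28%).

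The 3 Tbk1+/- libraries were far apart in these genes. Hmgcs1 (ENSMUSG00000093930, chromosome 13, 119690379 to 119708260, plus strand, GRCm38) had 409, 137 and 267 CPM in Tbk1+/- replicates 1, 2 and 3. It had 196, 158 and 212 CPM in WT, 172, 198 and 164 CPM in Tbk1+/- Ripk1-homozygous, and 169, 109 and 143 CPM in Tak1ΔM/+. It had 146, 135 and 120 CPM in the double heterozygote and 158, 158 and 152 CPM in the triple genotype. Replicate 1 of Tbk1+/- was thus the highest of the 18 libraries, and replicate 2 lay below every WT library. The fold change against WT was 0.52 on the log2 scale (SE 0.26, edgeR adjusted p = 0.505). An antisense gene, Gm48342, covers 12.1% of the Hmgcs1 exons, and these libraries do not mark strand.

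The same order ran through both stretches of the sterol pathway. Of the 7 enzymes from acetyl-CoA to farnesyl diphosphate, all 7 had their highest value of the 18 libraries in Tbk1+/- replicate 1 and followed the order replicate 1, 3, 2 within Tbk1+/-. Mvd, the mevalonate diphosphate decarboxylase, had 57.6, 15.6 and 49.1 CPM in Tbk1+/- against 34.5, 28.4 and 29.6 CPM in WT. Acat2, the cytosolic thiolase that joins acetyl-CoA units, had 39.5, 13.1 and 21 CPM against 14.2, 16.7 and 18.2 CPM. For both genes the Tbk1+/- libraries lay on either side of the WT range. Of the 11 enzymes from squalene to cholesterol, 8 followed this order. Fdft1, the squalene synthase, had 75.4, 21.6 and 50.7 CPM in Tbk1+/- and 36.7, 28.5 and 33.1 CPM in WT, with the caveat that the highly expressed neighbour Ctsb overlaps 18.3% of its exons. Cyp51 had 266, 92.8 and 170 CPM against 120, 114 and 152 CPM, and Sqle, the rate-limiting squalene epoxidase, 160, 65.4 and 104 CPM against 69, 75.8 and 96 CPM. Msmo1, at 463, 271 and 254 CPM against 242, 241 and 240 CPM, lay above WT in all 3 libraries. Tm7sf2 followed the order by small steps only, with 12.6, 11.9 and 12.4 CPM, inside the WT range of 11.5, 11.8 and 14.9 CPM. The enzymes of this stretch that did not follow it were Msmo1, Ebp and Dhcr7. Ebp had 49.9, 45.8 and 55.4 CPM in Tbk1+/-, and Dhcr7 had 52.8, 46.5 and 42.4 CPM, below every WT library. Mvd, Acat2, Fdft1, Cyp51, Sqle, Msmo1 and the other genes named below without a call were picked after their values had been seen.

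Counted over the 18 sterol enzymes, 14 (77.8%) had their highest value of all 18 libraries in Tbk1+/- replicate 1, where 9.16% of all tested genes did. Tbk1+/- replicate 2 was the lowest of all 18 libraries for 8 of the 18 (44.4%), against 6.36% of all genes, and the lowest Tbk1+/- library for 16 of 18 (88.9%), against 34.8%. The order 1, 3, 2 held for 15 of 18 (83.3%), against 16% of all genes. On the log2 scale relative to the WT mean, the median sterol enzyme stood at 0.90, -0.42 and 0.35 in the 3 Tbk1+/- libraries and between -0.20 and 0.29 in the other 15. The median SD within a genotype was 0.72 (log2) in Tbk1+/- and 0.16 to 0.23 in the other 5 genotypes, where all tested genes had 0.32 in Tbk1+/- and 0.23 to 0.28 elsewhere. The enzymes share regulators, so these counts are not over independent genes.

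**Figure D2:**
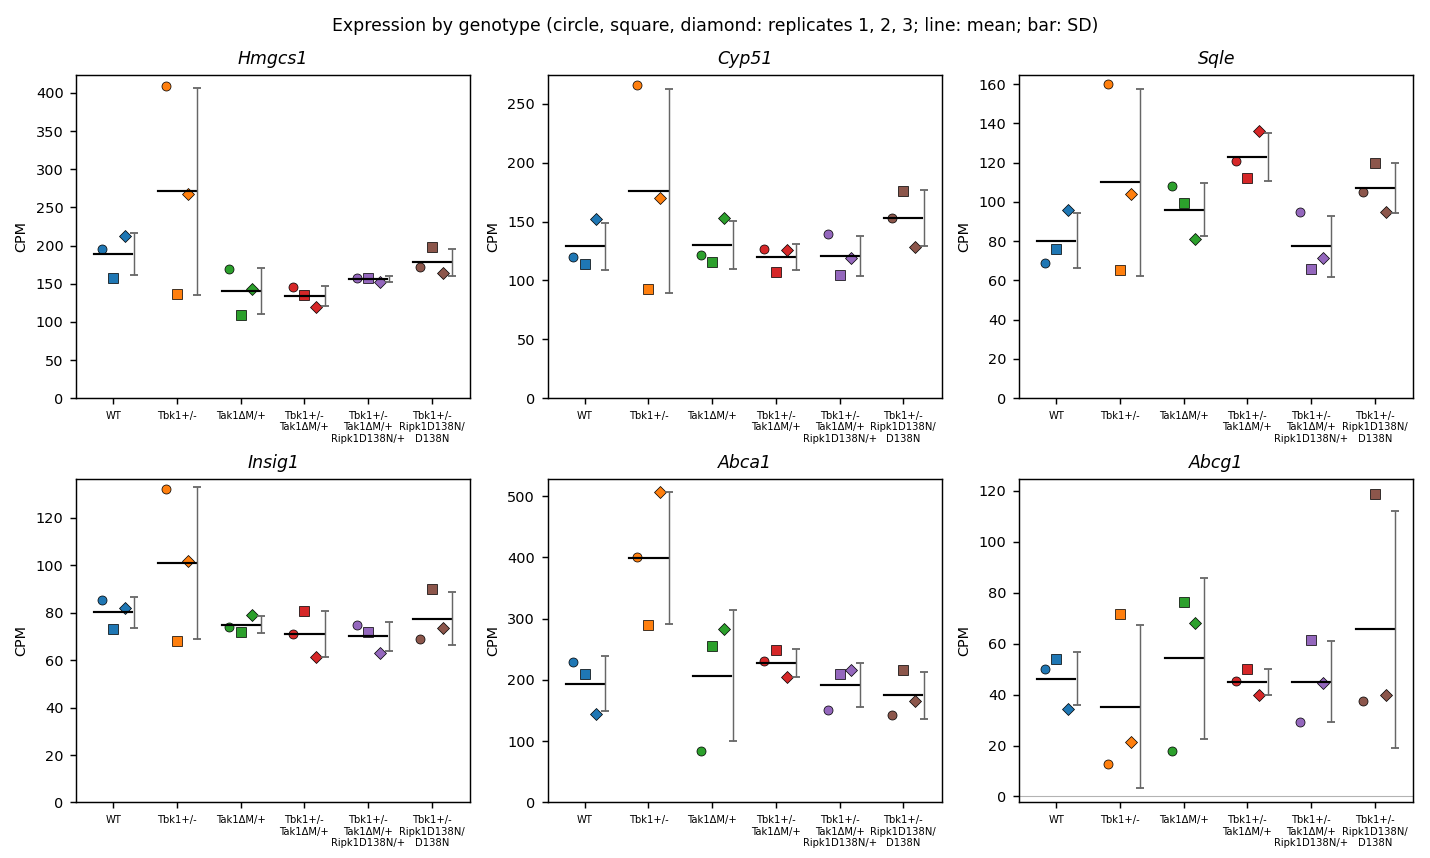
CPM of 6 genes by genotype, with replicates 1, 2 and 3 as circle, square and diamond, the mean as a line and the SD as a bar. In Tbk1+/-, Hmgcs1, Cyp51, Sqle and Insig1 were high in replicate 1 and low in replicate 2, Abcg1 was low in replicate 1 and high in replicate 2, and Abca1 lay above the WT libraries in all 3.

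The proliferation gene Mki67 moved with this order. It had 70.9, 15.4 and 61.1 CPM in Tbk1+/- and between 1.19 and 26.2 CPM in the other 15 libraries. Its part in the result was not tested. Mitochondrial shares within Tbk1+/- were close, at 1.82% to 2.2%, but lay above those of WT (0.671% to 1.62%). Share and genotype therefore cannot be told apart between Tbk1+/- and WT. Without Tbk1+/- replicate 2, edgeR called 3 of the 37 genes against WT, all higher (Hmgcs1, Mvd and Fdft1), and Hmgcs1 then had a log2 fold change of 0.842 (adjusted p = 0.024). The share of all genes called in that fit is not given, so the count cannot be read as particular to the 37 genes. Without replicate 1 the fold change of Hmgcs1 was 0.0992 (adjusted p = 0.958).

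Of the 6 SREBP factors, their partners and the sterol carrier, 2 followed the order of the enzymes, Insig1 and Stard4. Insig1, the retention protein whose own gene is an SREBP target, had 132, 68.2 and 102 CPM in Tbk1+/- and 85.4, 73 and 82.2 CPM in WT (log2 fold change 0.33, SE 0.18, edgeR adjusted p = 0.566). Its paralog Insig2 was even across Tbk1+/-, at 47.1, 48.9 and 48.9 CPM. Srebf2, which encodes SREBP-2, had 63.5, 47.6 and 64.3 CPM against 61.2, 65.4 and 56.6 CPM in WT, and its replicate 2 value was the lowest of the 18 libraries. Srebf1, which encodes SREBP-1, had 47.9, 59.5 and 72.2 CPM against 60.2, 48.5 and 48.2 CPM, an order unlike that of the sterol enzymes. Stard4, a sterol carrier protein, had its highest value of all libraries in Tbk1+/- replicate 1, at 24.3 CPM, against 12.2 and 20.5 CPM in replicates 2 and 3.

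LXR genes took other orders within Tbk1+/-. Abcg1, a cholesterol exporter, had 12.9, 71.8 and 21.3 CPM in Tbk1+/- and 50.1, 54 and 34.4 CPM in WT. Nr1h3 had 2.36, 15.5 and 7.63 CPM against 8.93, 6.07 and 8.59 CPM. Mylip, an LXR-induced ubiquitin ligase, had 28.6, 53.9 and 38.6 CPM against 40, 38.1 and 37.9 CPM. For these 3 genes replicate 1 was the lowest of all 18 libraries and replicate 2 the highest of its genotype, the reverse of the sterol enzymes. Abca1 differed from them, with 400, 290 and 507 CPM against 229, 210 and 144 CPM, so that all 3 libraries lay above WT (2.05-fold, log2 fold change 1.04, SE 0.32, edgeR adjusted p = 0.317). The spread in Abcg1 was not limited to Tbk1+/-. It had 17.9, 76.5 and 68.3 CPM in Tak1ΔM/+ and 37.5, 119 and 40 CPM in Tbk1+/- Ripk1-homozygous.

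Among the fatty acid genes Tbk1+/- replicate 2 was the lowest Tbk1+/- library for 7 of 8, against 34.8% of all genes, but replicate 1 was not set apart from replicate 3. The 7 include Fasn, which differed little between these libraries, and Elovl6 and Scd1, which were near the limit of detection. The median fatty acid gene stood at 0.40, -0.28 and 0.63 (log2 relative to the WT mean) in Tbk1+/- replicates 1, 2 and 3 and between -0.33 and 0.29 in the other 15 libraries. Scd2 had 89.9, 35.8 and 86.9 CPM against 55.3, 44.5 and 45.4 CPM in WT, and Acly 292, 178 and 226 CPM against 207, 205 and 167 CPM. Fasn, the fatty acid synthase itself, was even in Tbk1+/-, at 26.8, 25.8 and 27.7 CPM, inside the WT range of 21.3 to 37.3 CPM.

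Tak1ΔM/+ was compared with WT for the effect of the Tak1 allele alone. None of the 37 genes passed edgeR's test, where 0.0149% of all genes did (0.00744% higher and 0.00744% lower), 1 had an unadjusted p under 0.05 (Nr1h2, against 9.47% of all genes) and DESeq2 called 0 (0.61% of all genes). The median fold change was 0.04 on the log2 scale, with 22 of 37 above 0. Nr1h2 lay above WT in all 3 libraries, at 120, 131 and 117 CPM against 105, 101 and 91.4 CPM (log2 fold change 0.31, SE 0.13, edgeR adjusted p = 0.439). It was the only gene without overlap on the higher side (7.75% of all genes). On the lower side there were 3 (7.33% of all genes), Nsdhl and Idi1 of the sterol pathway and Insig2.

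**Figure D3:**
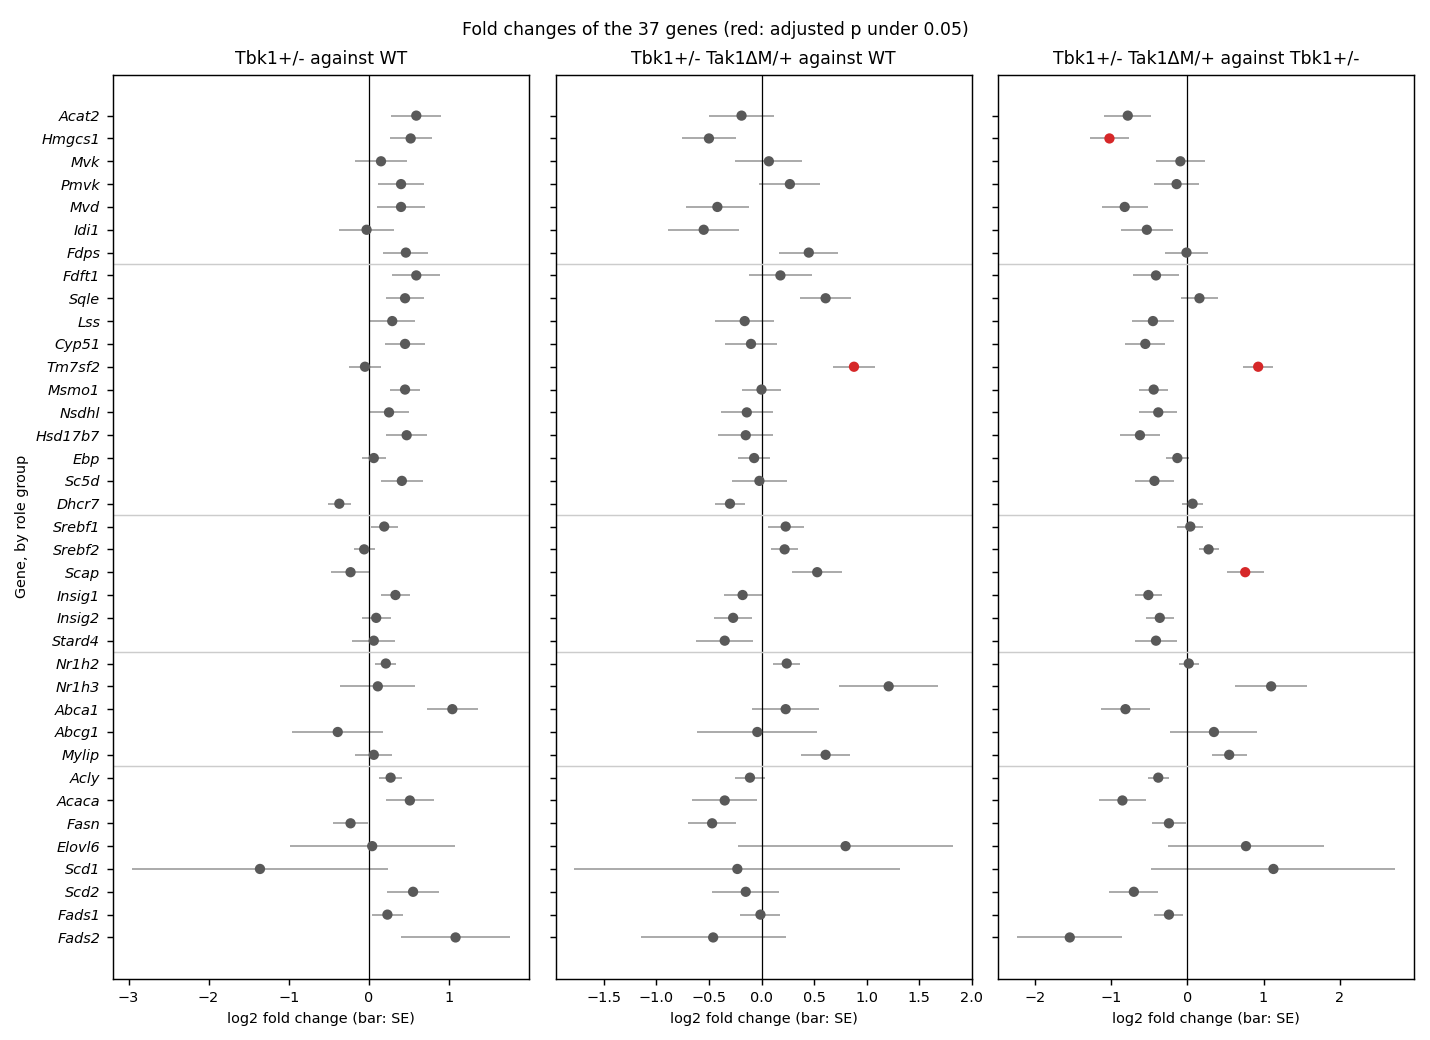
Log2 fold changes with SE for the 37 genes, by role, in 3 comparisons named above the panels, with genes of an edgeR adjusted p under 0.05 in red, and with a different horizontal scale in each panel. No gene was called for Tbk1+/- against WT, Tm7sf2 alone for the double heterozygote against WT, and Tm7sf2, Scap and Hmgcs1 against Tbk1+/-.

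The double heterozygote was compared with WT to ask what both alleles do together. Tm7sf2 rose 1.84-fold, and none of the other 36 genes passed edgeR's test, so that 1 of 37 was called higher against 2.16% of all genes and 0 lower against 3.9%. At an unadjusted p under 0.05 there were 7 (20.2% of all genes), and DESeq2 called 1 (10.6% of all genes). The median fold change was -0.07 on the log2 scale, with 15 of 37 above 0, against 0.00 for all genes. Groups did not overlap for 7 genes on the higher side (Fdps, Sqle, Tm7sf2, Scap, Nr1h2, Nr1h3 and Mylip, against 15.2% of all genes) and 4 on the lower side (Hmgcs1, Mvd, Dhcr7 and Acaca, against 14.4%).

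Cell type markers moved with this genotype. Against WT, and without overlap, the double heterozygote had less Cx3cr1 (262 to 349 against 452 to 456 CPM), Itgam (41.3 to 43.6 against 67 to 94.4 CPM) and P2ry12 (2.97 to 8.79 against 9.17 to 15.7 CPM) and more Aif1 (71.2 to 78.6 against 44.8 to 70.1 CPM) among the microglial markers, while Csf1r and Tmem119 overlapped. Of the oligodendrocyte-lineage markers, Cnp (84.4 to 94 against 71.4 to 78.7 CPM), Olig1 (8.57 to 15.7 against 4.18 to 7.9 CPM), Olig2 (4.28 to 6.02 against 0.19 to 1.68 CPM) and Pdgfra (4.93 to 9.81 against 0 to 2.53 CPM) were higher without overlap, and Mog was at 0 in both genotypes. Summed fibroblast markers were at 2.92 to 3.33 against 8.35 to 44.4 CPM, and astrocyte markers at 14.7 to 22.8 against 27.4 to 38 CPM. The part of these markers in the double heterozygote results was not tested.

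Tm7sf2 (ENSMUSG00000024799, chromosome 19, 6062821 to 6068373, minus strand, GRCm38) had 23.8, 25.9 and 20.9 CPM in the double heterozygote. In WT it had 11.5, 11.8 and 14.9 CPM, in Tbk1+/- 12.6, 11.9 and 12.4 CPM, and in Tak1ΔM/+ 13.8, 13.8 and 11.8 CPM. In the triple genotype it had 18.7, 11.8 and 12.6 CPM, and in Tbk1+/- Ripk1-homozygous 13.2, 13.5 and 15.1 CPM. All 3 double heterozygote libraries therefore lay above the other 15. The log2 fold change was 0.88 against WT (SE 0.20, edgeR adjusted p = 0.0138), 0.93 against Tbk1+/- (adjusted p = 0.00439) and 0.84 against Tak1ΔM/+ (adjusted p = 0.0287). These 3 comparisons share the double heterozygote libraries. Vps51, a protein-coding gene on the same strand, overlaps 12.1% of the Tm7sf2 exons. In the other 5 libraries of low mitochondrial share Tm7sf2 stood at 13.2 to 18.7 CPM, below the double heterozygote and at or above most of the 10 libraries of higher share (11.5 to 13.8 CPM). With that share as a covariate the fold change against WT was 0.70 and its adjusted p 0.106. The share does not overlap between the double heterozygote (0.367% to 0.512%) and WT (0.671% to 1.62%), so share and genotype cannot be told apart. The call against WT was also lost without WT replicate 1 (adjusted p = 0.0699), WT replicate 2 (0.0724), double heterozygote replicate 1 (0.0543) or replicate 2 (0.0635).

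Other sterol enzymes went both ways in the double heterozygote, where Mki67 was at 1.19 to 2.14 CPM, under its values in the other 15 libraries (at least 7.89 CPM). Its part in these results was not tested. Sqle had 121, 112 and 136 CPM against 69, 75.8 and 96 CPM in WT (log2 fold change 0.61, SE 0.24, edgeR adjusted p = 0.142), and Hmgcs1 lay below every WT library (-0.50, SE 0.26, adjusted p = 0.295). Idi1, the isopentenyl diphosphate isomerase, had the largest fold change of the early enzymes, at -0.55 (SE 0.34, adjusted p = 0.394). It had 10.1, 7.78 and 6.32 CPM in the double heterozygote and 9.31, 11.1 and 15.2 CPM in WT, which overlap. In the remaining genotypes Idi1 had 16.8, 5.88 and 12.2 CPM (Tbk1+/-), 4.97, 8.55 and 8.92 CPM (Tak1ΔM/+), 7.65, 5.85 and 7.23 CPM (triple genotype) and 9.2, 9.3 and 13.1 CPM (Tbk1+/- Ripk1-homozygous).

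Scap, the escort of SREBP, was highest in the double heterozygote. It had 26.7, 27.8 and 28.4 CPM there, above the other 15 libraries. Scap had 18.3, 17 and 22.3 CPM in WT, 22.8, 13.8 and 12.2 CPM in Tbk1+/- and 24.7, 19.9 and 19.4 CPM in Tak1ΔM/+. It had 25.8, 18.3 and 16.8 CPM in the triple genotype and 20.4, 14.3 and 22.1 CPM in Tbk1+/- Ripk1-homozygous. Its fold change against WT was 0.53 (log2, SE 0.24, edgeR adjusted p = 0.222). Libraries of low mitochondrial share other than the double heterozygote had 20.4 to 25.8 CPM of Scap, and those of higher share 12.2 to 22.8 CPM, so the double heterozygote lay above both.

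Nr1h3 had 19.1, 15 and 20.2 CPM in the double heterozygote against 8.93, 6.07 and 8.59 CPM in WT, with no overlap (2.31-fold, log2 fold change 1.21, SE 0.47, edgeR adjusted p = 0.144). It had 4.47, 5.04 and 11.7 CPM in Tak1ΔM/+, 11.2, 11.3 and 9.66 CPM in the triple genotype and 10.5, 6.45 and 8.96 CPM in Tbk1+/- Ripk1-homozygous. Only 1 other library reached the double heterozygote range, Tbk1+/- replicate 2 at 15.5 CPM. Leaving out 1 library of the double heterozygote or WT at a time gave no call of Nr1h3 (edgeR adjusted p = 0.198 to 0.36). A fit on the 6 libraries of these 2 genotypes alone did call it (adjusted p = 0.0103), with the share of all genes called there not given. Mylip, at 60, 53.7 and 63.4 CPM against 40, 38.1 and 37.9 CPM, also lay above WT (log2 fold change 0.61, SE 0.23, adjusted p = 0.126). The exporters did not share this, with Abca1 at 231, 249 and 204 CPM against 229, 210 and 144 CPM and Abcg1 at 45.2, 50.2 and 39.9 CPM against 50.1, 54 and 34.4 CPM, both overlapping WT.

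Of the 8 fatty acid genes 7 had fold changes below 0 in the double heterozygote, with a median of -0.19 on the log2 scale and no call. Fasn had 27.4, 20.9 and 19.5 CPM against 37.3, 35.7 and 21.3 CPM (log2 fold change -0.47, SE 0.23, edgeR adjusted p = 0.246), with WT replicate 3 inside the double heterozygote range. The largest fold change was that of Elovl6, 0.80 with an SE of 1.02, a gene near the limit of detection. It had 3.76, 0.902 and 2.79 CPM in the double heterozygote, 1.65, 0 and 2.67 CPM in WT, 1.45, 0.343 and 2.65 CPM in Tbk1+/- and 1.19, 1.88 and 4.94 CPM in Tak1ΔM/+. It had 4.15, 0.732 and 2.57 CPM in the triple genotype and 2.33, 0.555 and 2.58 CPM in Tbk1+/- Ripk1-homozygous. Its libraries overlapped between all genotypes, and WT replicate 2, with no count, allows up to 0.177 CPM (3 counts, counting error only). Scd1 was likewise at 0 to 4.95 CPM and could not be resolved at this depth.

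**Figure D4:**
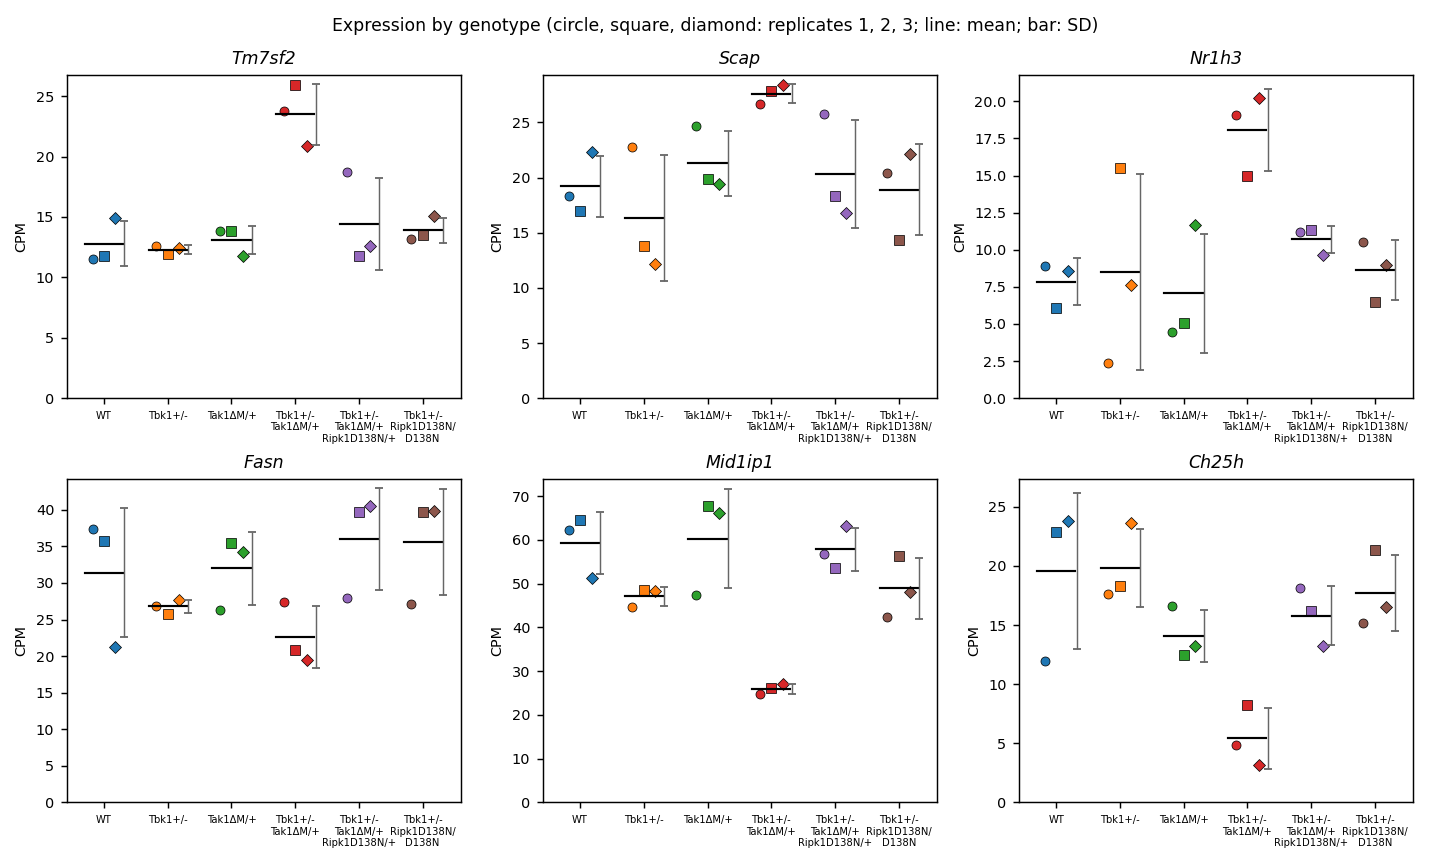
CPM by genotype of 4 genes of the group (Tm7sf2, Scap, Nr1h3 and Fasn) and 2 further lipid genes (Mid1ip1 and Ch25h), with replicates 1, 2 and 3 as circle, square and diamond, the mean as a line and the SD as a bar. The double heterozygote libraries lay above the other 15 for Tm7sf2 and Scap and below them for Mid1ip1 and Ch25h.

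Against Tbk1+/-, which asks what the Tak1 allele adds, the double heterozygote had 3 called genes of 37 by edgeR. Tm7sf2 and Scap rose, 2 of 37 against 6.44% of all genes, and Hmgcs1 fell, 1 of 37 against 8.24%. In all, 14.7% of genes were called. Unadjusted p-values under 0.05 numbered 17 (28.6% of all genes), and DESeq2 called 7 (18.7% of all genes). The median fold change was -0.36 on the log2 scale, with 25 of 37 below 0 (15 of the 18 sterol enzymes), where all genes had 0.01. This comparison draws on the widely spread Tbk1+/- libraries. The groups did not overlap for 3 genes on the higher side (Tm7sf2, Srebf2 and Scap, against 17.2% of all genes) and 4 on the lower side (Hsd17b7, Abca1, Acaca and Fads2, against 16.4%).

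Hmgcs1 fell to 134 ± 13.2 CPM from 271 ± 136 CPM (SD, n = 3), a log2 fold change of -1.02 (SE 0.26, edgeR adjusted p = 0.0139), although Tbk1+/- replicate 2, at 137 CPM, lay inside the double heterozygote range of 120 to 146 CPM. Without Tbk1+/- replicate 1 the fold change was -0.608 and the call was lost (adjusted p = 0.115), as it was without double heterozygote replicate 3 (0.0685), and without Tbk1+/- replicate 2 the fold change was -1.35 (adjusted p = 0.000152). Scap (ENSMUSG00000032485, chromosome 9, 110333288 to 110384950, plus strand, GRCm38) rose 1.69-fold (log2 fold change 0.76, SE 0.24, edgeR adjusted p = 0.0403). That call was lost without any 1 of 5 of the 6 libraries (adjusted p up to 0.169), the exception being Tbk1+/- replicate 1. The unannotated transcript 5830462I19Rik overlaps 13.2% of the Scap exons on the other strand. With the mitochondrial share as a covariate none of the 3 calls held, at adjusted p = 0.443 for Tm7sf2, 0.922 for Scap and 0.313 for Hmgcs1. The shares do not overlap between these 2 genotypes (1.82% to 2.2% and 0.367% to 0.512%), so share and genotype cannot be told apart here. Without Tbk1+/- replicate 2, edgeR called 13 of the 37 genes, 3 higher and 10 lower, the lower ones including Mvd, Fdft1, Cyp51, Insig1 and Scd2. As the share of all genes called in that fit is not given, this count cannot be read as particular to the 37 genes.

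Against Tak1ΔM/+, the double heterozygote had 1 called gene, Tm7sf2, higher (edgeR, against 0.736% of all genes called higher and 2.79% called in all), 4 genes had an unadjusted p under 0.05 (15.9% of all genes), and DESeq2 called 1 (5.45% of all genes). The median fold change was -0.03 on the log2 scale. The groups did not overlap for 5 genes on the higher side (Fdps, Sqle, Tm7sf2, Scap and Nr1h3, against 12% of all genes) and for 2 on the lower side (Dhcr7 and Acly, against 12.5%). The call of Tm7sf2 held without Tak1ΔM/+ replicate 1 and was lost without any 1 of the other 5 libraries (adjusted p up to 0.14). Y-linked RNA does not overlap between Tak1ΔM/+ (0 to 3.02 CPM) and the double heterozygote (75.9 to 99.5 CPM). Y-linked RNA and genotype therefore cannot be told apart in this comparison.

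A test of the interaction asked whether the Tak1 allele acts differently with and without the Tbk1 allele. None of the 37 genes passed edgeR's test, where 1.75% of all genes did (0.528% above and 1.22% below 0). Unadjusted p-values under 0.05 numbered 3 (Tm7sf2, Acly and Scd2, against 16.7% of all genes), and DESeq2 called 1, Tm7sf2 (5.05% of all genes). Of the 37 terms 29 were below 0, with a median of -0.23 on the log2 scale against 0.00 for all genes. These terms subtract the widely spread Tbk1+/- libraries, where 29 of the 37 fold changes against WT were above 0. The term of Tm7sf2 was 0.89 (SE 0.28, edgeR adjusted p = 0.108). Without Tbk1+/- replicate 2, edgeR called 3 terms, all below 0 (Hmgcs1, Mvd and Acly), and without Tak1ΔM/+ replicate 1 it called 1, that of Abca1. Shares over all genes are not given for these refits, so the counts cannot be read as particular to the 37 genes. Tak1ΔM/+ and the double heterozygote, which differ in Y-linked RNA without overlap, both enter this test.

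Ripk1 D138N was set against its controls on 2 backgrounds. Between the triple genotype and the double heterozygote none of the 37 genes passed edgeR's test, where 2.45% of all genes did (1.84% higher and 0.617% lower). Under an unadjusted p of 0.05 there were 6 (15.5% of all genes), and DESeq2 called 1, Tm7sf2 (5.53% of all genes). Tm7sf2 was lower in the triple genotype (log2 fold change -0.71, SE 0.20, edgeR adjusted p = 0.0675) in all 3 libraries, and without triple genotype replicate 1, at 18.7 CPM, its fold change was -0.96 (adjusted p = 0.0163). Groups did not overlap for 5 genes on the higher side (Hmgcs1, Mvd, Ebp, Acly and Fasn, against 12.8% of all genes) and for 5 on the lower side (Sqle, Tm7sf2, Scap, Nr1h3 and Mylip, against 11.4%). Fasn was at 28, 39.7 and 40.5 CPM against 27.4, 20.9 and 19.5 CPM (log2 fold change 0.67, SE 0.23, adjusted p = 0.137). As the libraries labelled triple genotype had Tbk1 RNA near the WT level, Tbk1 level and Ripk1 genotype cannot be told apart in this comparison. Nor can Y-linked RNA, which did not overlap between the triple genotype (0 to 61.5 CPM) and the double heterozygote (75.9 to 99.5 CPM).

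Between Tbk1+/- Ripk1-homozygous and Tbk1+/- microglia none of the 37 genes passed edgeR's test, where 0.521% of all genes did (0.283% higher and 0.238% lower). Unadjusted p-values under 0.05 numbered 4 (Abca1, Hmgcs1, Dhcr7 and Hsd17b7, against 15.3% of all genes), and DESeq2 called 1, Abca1 (3.64% of all genes). In 2 of the 3 libraries labelled Tbk1+/- Ripk1-homozygous Tbk1 RNA was at 130 and 131 CPM, against 50.5 to 65.6 CPM in Tbk1+/-, so here too Tbk1 level and Ripk1 genotype differ together. Between these genotypes Y-linked RNA (0 to 42.9 against 59.8 to 187 CPM) and the mitochondrial share (0.449% to 1.57% against 1.82% to 2.2%) did not overlap. Neither can be told apart from Ripk1 genotype in this comparison. Abca1 had 143, 217 and 166 CPM against 400, 290 and 507 CPM (log2 fold change -1.19, SE 0.32, edgeR adjusted p = 0.104), with no overlap. The groups did not overlap for Tm7sf2 and Srebf2 on the higher side (8.57% of all genes) and for Insig2 and Abca1 on the lower side (8.04%). The median fold change was -0.04 on the log2 scale. Without Tbk1+/- replicate 2, edgeR called 5 genes, all lower (Hmgcs1, Mvd, Nsdhl, Insig1 and Abca1). Again the share of all genes called in that fit is not given, and the count cannot be read as particular to the 37 genes.

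Beyond the 37 genes, 22 further genes of sterol and lipid handling were counted. In the double heterozygote against WT, 4 of the 22 fell (3.9% of all genes) and 0 rose (2.16% of all genes) by edgeR's test, and by DESeq2 the same 4 fell. At an unadjusted p under 0.05 there were 6 (20.2% of all genes). Mid1ip1, a partner of acetyl-CoA carboxylase that promotes fatty acid synthesis, had 24.8, 26.2 and 27.1 CPM against 62.2, 64.6 and 51.2 CPM (log2 fold change -1.19, SE 0.15, adjusted p = 0.000499). Ch25h, which makes the oxysterol 25-hydroxycholesterol, had 4.83, 8.23 and 3.19 CPM against 12, 22.9 and 23.8 CPM (-1.89, SE 0.32, adjusted p = 0.00274). Both lay below the other 15 libraries. Ggps1, which makes geranylgeranyl diphosphate from the mevalonate chain, fell to 14.8 ± 2.81 from 26.9 ± 1.4 CPM (-0.86, adjusted p = 0.0209), and the elongase Elovl5 to 39.5 ± 6.74 from 60.9 ± 2.9 CPM (-0.62, adjusted p = 0.017; SD, n = 3). In the other 5 libraries of low mitochondrial share Mid1ip1 stood at 42.3 to 56.7 CPM and Ch25h at 15.2 to 23.8 CPM, above the double heterozygote range. The share does not overlap between the double heterozygote (0.367% to 0.512%) and WT (0.671% to 1.62%), so share and genotype cannot be told apart. With that share as a covariate the calls of Mid1ip1 and Ch25h against WT held (adjusted p = 0.00387 and 0.0116). The calls of Ggps1 and Elovl5 did not hold with it (0.144 and 0.074), nor without WT replicate 2 or double heterozygote replicate 2 or 3, and that of Ggps1 also not without WT replicate 1 (adjusted p up to 0.0968 for Ggps1 and 0.0759 for Elovl5). The antisense gene Gm14493 covers 25.5% of the Mid1ip1 exons, and Gm26902 covers 11.5% of those of Ch25h.

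Both genes were higher again in the triple genotype. Mid1ip1 had 56.7, 53.6 and 63.1 CPM there and rose against the double heterozygote by 1.15 on the log2 scale (SE 0.15, edgeR adjusted p = 0.000665). Ch25h had 18.1, 16.2 and 13.2 CPM and rose by 1.58 (SE 0.32, adjusted p = 0.0122), a call lost without double heterozygote replicate 1 or 3 or triple genotype replicate 2 (adjusted p up to 0.0848). These were the only 2 of the 22 called in that comparison (1.84% of all genes higher), which shares the double heterozygote libraries with the one against WT. Tbk1 level and Y-linked RNA differ there without overlap and cannot be told apart from Ripk1 genotype, and Mid1ip1 lies on chromosome X. Against Tbk1+/-, where 8.24% of all genes fell and 6.44% rose, 5 of the 22 were lower (Mid1ip1, Ch25h, Ggps1, Elovl5 and Lpin1, a phosphatidate phosphatase, at -1.16, adjusted p = 0.0263) and 1 was higher (Pltp, the phospholipid transfer protein, at 0.50, adjusted p = 0.0456, with Ctsa covering 19.3% of its exons). Of these 6, Mid1ip1, Ch25h and Elovl5 kept their calls without any 1 library. Ggps1 lost its call without double heterozygote replicate 2 or 3 (adjusted p up to 0.062). Lpin1 lost its call without Tbk1+/- replicate 1 or 3 or double heterozygote replicate 1 or 2 (up to 0.112), and Pltp lost its call without any library but Tbk1+/- replicate 2 (up to 0.205). With the mitochondrial share as a covariate none of the 6 was called, with adjusted p from 0.0734 for Ch25h to 0.614 for Lpin1. Against Tak1ΔM/+, 2 were lower (2.05% of all genes), Mid1ip1 (-1.21, adjusted p = 0.000712) and Ch25h (-1.42, adjusted p = 0.021, up to 0.118 and lost without Tak1ΔM/+ replicate 2 or 3 or double heterozygote replicate 1 or 3). Without the 5 libraries whose Tbk1 RNA goes against their labels, the calls of Pltp against Tbk1+/- (adjusted p = 0.087) and of Ch25h against Tak1ΔM/+ (0.0512) were lost. With the Tak1 allele alone Ggps1 was not called, though its groups did not overlap, at 9.44, 16.9 and 15.8 CPM against 27.7, 27.8 and 25.3 CPM in WT (-0.94, SE 0.21, adjusted p = 0.242). No gene of the 22 was called for Tbk1+/- or Tak1ΔM/+ against WT or for Tbk1+/- Ripk1-homozygous against Tbk1+/-, by edgeR, with 3, 1 and 3 at an unadjusted p under 0.05, while DESeq2 called 0, 1 (Ggps1) and 1 (Lpin1).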

How the data were processed

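Libraries were made from 1 ng of RNA by Smart-seq2 with 12 PCR cycles and paired reads of 50 bases, per the labels' protocols, which mark no strand and no molecules. The values deposited by the authors are raw counts per gene, made with STAR and featureCounts on mm10, per the submitters' processing notes, whereas the labels' protocol text names RSEM and a UCSC transcriptome. Versions, annotation and strand setting are not given in the sources used here. Symbols, coordinates and overlaps come from GENCODE M21 (GRCm38). Of 50686 identifiers 310 had no symbol there and took up to 0.00437% of the counts of any library.

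Genes were kept by filterByExpr (13447), scaled by TMM and tested in 1 fit of all 18 libraries with edgeR 4.0.16 (quasi-likelihood) in R 4.3.3, adjusted by Benjamini-Hochberg over all genes tested, with calls under 0.05. Every adjusted p is from this test unless another is named. Log2 ratios to the WT mean used CPM + 0.5. Levels between genes are per kilobase of merged exons. The script was tested on simulated data. No 2 replicates matched within sampling noise. Counts come from amplified cDNA, so a floor of 3 counts covers counting error only.

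Members called in any comparison, or with the largest fold change of their role group in the double heterozygote against WT, are given in every library, and called genes among the 22 others are named. The members and lists were chosen with earlier results of these data known. Alternatives were DESeq2 1.42.0, DESeq2 size factors, no filter, a filter at a mean of 5 CPM, a replicate block, the compared libraries alone and leaving out each library. Covariates for the mitochondrial share and for 4 Y-linked genes, and leaving out the 5 libraries with Tbk1 near the WT level, were chosen after seeing the data.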

Additional observations from a re-analysis of the deposited data

Results flagged for a closer look

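Mid1ip1, a gene of fatty acid synthesis outside the 37, responded to the Tak1 allele differently with and without the Tbk1 allele. Its interaction term was -0.88 on the log2 scale (SE 0.21, edgeR adjusted p = 0.0465). It had 24.8, 26.2 and 27.1 CPM in the double heterozygote, 44.6, 48.6 and 48.3 CPM in Tbk1+/-, 47.3, 67.7 and 66.1 CPM in Tak1ΔM/+ and 62.2, 64.6 and 51.2 CPM in WT. The term passed by a small margin. Its adjusted p was 0.0557 with the replicate number as a block, 0.0746 in a fit on these 4 genotypes alone, 0.0873 without the 5 libraries whose Tbk1 RNA went against a Tbk1+/- label, and 0.638 when the mitochondrial share entered the fit. Leaving out 1 library at a time gave terms from -1.03 to -0.781, with the call lost in 10 of 12 cases and kept without Tbk1+/- replicate 2 or Tak1ΔM/+ replicate 1. Mid1ip1 lies on chromosome X. Y-linked RNA was at 0 to 3.02 CPM in Tak1ΔM/+ and 75.9 to 99.5 CPM in the double heterozygote. Between these genotypes Y-linked RNA and genotype cannot be told apart.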

How the results depend on the processing

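Of the 37 genes, edgeR called 1 over all genotypes, 1 in the double heterozygote against WT, 3 against Tbk1+/- and 1 against Tak1ΔM/+, and 0 in the other comparisons. DESeq2 gave 3 over all genotypes, 7 against Tbk1+/-, and 1 each for the triple genotype against the double heterozygote, for Tbk1+/- Ripk1-homozygous against Tbk1+/- and for the interaction. With no filter on low counts the count was 10 over all genotypes, 1 for Tbk1+/- against WT (Abca1), 5 and 11 for the double heterozygote against WT and Tbk1+/-, 1 for the triple genotype, 3 for Tbk1+/- Ripk1-homozygous and 2 for the interaction, and against Tak1ΔM/+ the 1 call was Nr1h3 instead of Tm7sf2. Fits on only the libraries compared gave 5 for the double heterozygote against WT (Hmgcs1, Sqle, Tm7sf2, Nr1h3 and Mylip) and 2 for the triple genotype. The covariate for the mitochondrial share left 0 over all genotypes and 0 in the double heterozygote against WT, Tbk1+/- or Tak1ΔM/+. The covariate for Y-linked genes gave 2 over all genotypes, 2 for the double heterozygote against WT, 2 against Tak1ΔM/+, 2 for the triple genotype and 1 for the interaction. The cause of these shifts was not tested. Apart from DESeq2, the share of all genes called under these alternatives is not given, so the counts cannot be read as particular to the 37 genes.

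Leaving out 1 library at a time gave 0 to 8 calls over all genotypes, 0 to 3 for Tbk1+/- against WT, 0 to 1 for the double heterozygote against WT, 1 to 13 against Tbk1+/-, 0 to 1 against Tak1ΔM/+, 0 to 1 for the triple genotype, 0 to 5 for Tbk1+/- Ripk1-homozygous and 0 to 3 for the interaction. The counts of 8, 3, 13, 5 and 3 came without Tbk1+/- replicate 2, and the 1 for the triple genotype without its replicate 1. These counts stand without the share of all genes called in the same fits and cannot be read as particular to the 37 genes. Over all genotypes 0 were left without Tbk1+/- replicate 1 or any 1 double heterozygote library. Tak1ΔM/+ against WT stayed at 0 to 0. Without the 5 libraries whose Tbk1 RNA went against a Tbk1+/- label, every count among the 37 that could be computed was as before, and the triple genotype could not be compared. No named fold change reversed under any alternative run. Of the values of named fold changes, 321 kept their side of the threshold, 78 lost and 8 gained a call.

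Replicate numbers are shared across genotypes, but they did not pair the libraries. Deviations of same-numbered libraries from their genotype means correlated at -0.194 to 0.141 over 45 pairs. With the replicate block the counts were 1, 0, 0, 1, 3, 1, 0, 0 and 0 for the overall test, Tbk1+/-, Tak1ΔM/+ and the double heterozygote against WT, the double heterozygote against Tbk1+/- and Tak1ΔM/+, the triple genotype, Tbk1+/- Ripk1-homozygous and the interaction, the same as without it. Among the further genes, Pltp against Tbk1+/- lost its call with the block (adjusted p = 0.0642), as did the interaction term of Mid1ip1 (0.0557). Depth limited Elovl6 and Scd1, which were at or near 0 in some libraries.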
